A study of Mus musculus with 10 samples.

Results

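Mouse embryonic stem cells draw one-carbon units from threonine, glycine and serine, and 10 genes of these steps are described here in Mbd3 mutants: Tdh, Gcat, Gldc, Phgdh, Psat1, Shmt1, Shmt2, Mthfd1, Mthfd2 and Aldh1l1. They were chosen by gene symbol, with earlier results of these data known, and all 10 stand among the 8694 genes listed in at least 1 of the 4 deposited tables. The 4 mutant lines were made with CRISPR/Cas9 from E14, a mouse embryonic stem cell line, and all cells were grown on gelatin, with no drug or other treatment in the labels. Mbd3abc KO cells carry mutations in exon 5 of Mbd3, Mbd3cΔN-ab KO and Mbd3ab KO cells in exon 2, and Mbd3c KO cells in intron 2, and unedited E14 cells served as WT. Each group had 2 libraries of total RNA depleted of ribosomal RNA, which the labels call biological replicates. The labels do not say whether both libraries of a line were grown from 1 clone, so the p-values measure the spread between libraries that may share a clone. The comparison asks which genes depend on which Mbd3 isoform, Mbd3 being a subunit of NuRD, a complex that remodels nucleosomes and deacetylates histones.

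Threonine dehydrogenase, encoded by Tdh, starts the breakdown of threonine in mitochondria, and Gcat completes it to glycine and acetyl-CoA. Mouse embryonic stem cells are known for high Tdh and for dependence on threonine. Glycine and serine then pass carbon units to folate: Gldc is the decarboxylase of the glycine cleavage system, Phgdh and Psat1 make serine from a glycolysis intermediate, and Shmt1 in the cytosol and Shmt2 in mitochondria convert serine to glycine. Mthfd1 in the cytosol and Mthfd2 in mitochondria interconvert the loaded folates used for purines, thymidylate and methionine. Aldh1l1 removes the unit again, oxidising 10-formyltetrahydrofolate to carbon dioxide, and is best known as a marker of astrocytes.

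Most of these genes were lower in the 2 mutants with the least Mbd3 RNA, and Aldh1l1 was higher in every mutant. In Mbd3abc KO 9 of the 10 passed the authors' threshold, an adjusted p of 0.05, 8 lower and 1 higher, where 52.1% of all genes tested were called, 24.9% lower and 27.1% higher. In Mbd3cΔN-ab KO 8 were called, 7 lower and 1 higher, against a background of 41.5% called, 20.4% lower and 21.1% higher. In Mbd3ab KO 2 were called, Phgdh lower and Aldh1l1 higher, where 3.35% of genes tested were called, 1.3% lower and 2.05% higher. In Mbd3c KO only Aldh1l1 was listed, where 0.353% of genes tested were called and 0.316% were called higher. Almost all listed genes were called. The exceptions were 9 of 8141 in Mbd3abc KO, 11 of 6000 in Mbd3cΔN-ab KO and 1 of 443 in Mbd3ab KO. All 10 genes stand among the 8694 listed for any mutant, beside 8132 calls in Mbd3abc KO and 5989 in Mbd3cΔN-ab KO. The number of these genes called was thus partly set by their choice, and the shares of all genes tested do not allow for that. A gene that is not listed for a mutant has no value there, and its level is not known to be equal to WT. The median deposited log2 fold change of the called genes of this group was -0.95 in Mbd3abc KO and -0.92 in Mbd3cΔN-ab KO, whereas over all called genes it was 0.46 and 0.37. All comparisons share the same 2 WT libraries. Mutant and WT libraries did not overlap for any called gene of this group. That describes genes already called on the same libraries and is no further test, and the share over all called genes was not counted.

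**Figure D1:**
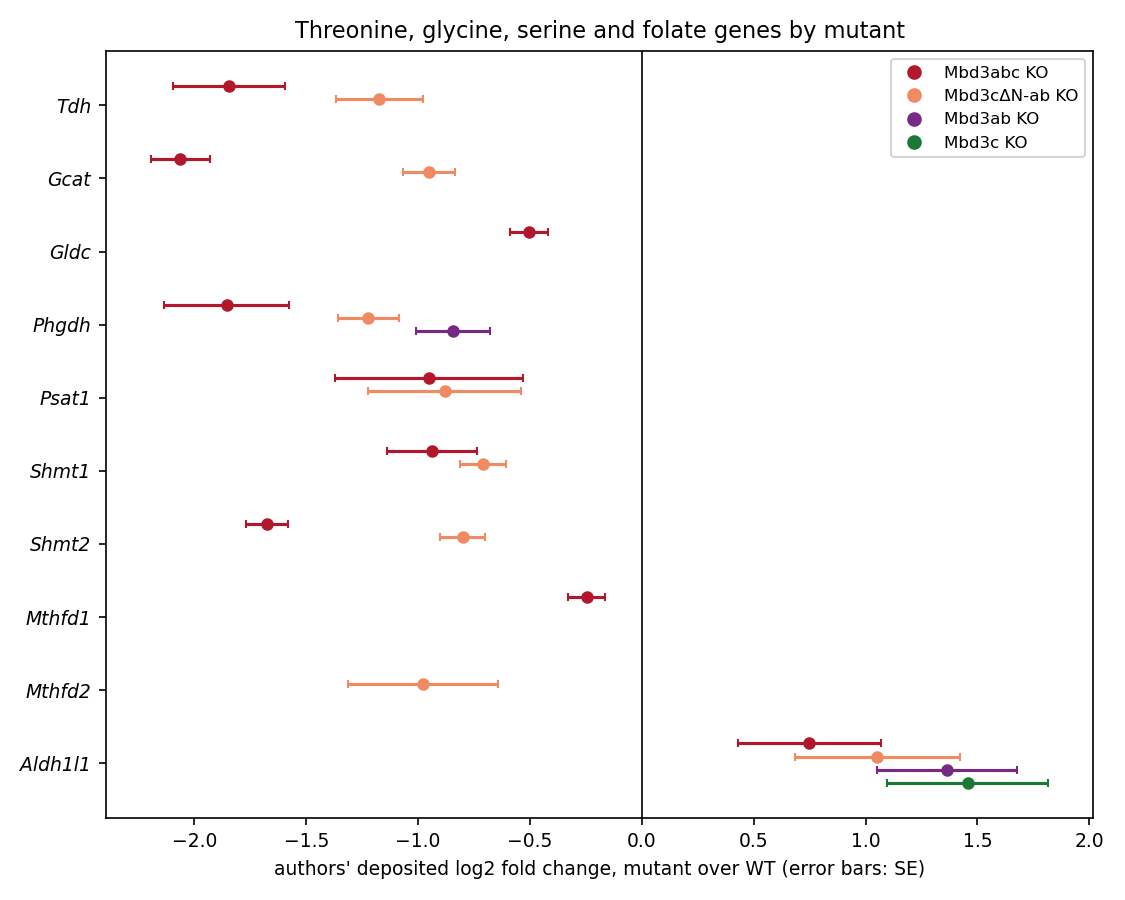
Authors' deposited log2 fold change of each gene, mutant over WT, with its SE as error bar (n = 2 libraries per group), coloured by mutant; a gene without a point was not listed for that mutant. The 8 points of genes that were lower in Mbd3abc KO lie between -0.25 and -2.06, and the 4 points of Aldh1l1 lie between 0.75 and 1.46.

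The libraries differed in depth: relative to the first WT library the second had 1.59 times the reads. The Mbd3abc KO and Mbd3cΔN-ab KO libraries had 0.94 to 1.38 times, and the Mbd3ab KO libraries 1.23 and 0.71 times. Absolute totals are unknown, since the tables hold part of each library. First and second library mean the order of columns, and this order does not match libraries between mutants. Levels are given as normalized reads, the recovered reads divided by the size factors of that table, and are comparable within a table. Mbd3 itself, the edited gene, averaged 133 ± 35.4 normalized reads in Mbd3abc KO and 1732 ± 60.8 in WT (SD, n = 2 each). It was 13.0-fold lower in Mbd3abc KO, 5.57-fold lower in Mbd3cΔN-ab KO and 2.61-fold lower in Mbd3ab KO, and it was not listed for Mbd3c KO. Embryonic stem cell markers were present at high levels. Pou5f1 averaged 3731 ± 1295 normalized reads in Mbd3abc KO and 11258 ± 551 in WT, 3.02-fold lower in the mutant. In Mbd3abc KO 6 of the 9 markers of the list were called, where 52.1% of all genes tested were. Of these, 3 were higher (Klf4, Tdgf1 and Sox2) and 3 lower (Pou5f1, Esrrb and Utf1). Of 5 fibroblast markers Thy1 was higher and Vim and Col1a1 lower in both Mbd3abc KO and Mbd3cΔN-ab KO. Of 3 mesoderm markers Eomes was higher in these and in Mbd3ab KO. Mixl1 was higher in Mbd3abc KO, with 15.5 and 31.5 normalized reads, against 2.58 and 0 in WT. No endoderm marker of 4 was called in any table.

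The promoters of the gene that was higher and of 3 that were lower are shown to set their CpG density side by side, CpG being the base step after which the methyl-CpG binding domain of Mbd3 is named. They are the 250 bases upstream of the RefSeq start of each gene in GRCm38.p6, read 5′ to 3′ on the strand of the gene, with every CpG in capitals. The Aldh1l1 segment lies at chr6:90550543-90550792 on the plus strand, Gcat at chr15:79030624-79030873 on the plus strand, Phgdh at chr3:98339970-98340219 on the minus strand and Shmt2 at chr10:127522445-127522694 on the minus strand.
Aldh1l1: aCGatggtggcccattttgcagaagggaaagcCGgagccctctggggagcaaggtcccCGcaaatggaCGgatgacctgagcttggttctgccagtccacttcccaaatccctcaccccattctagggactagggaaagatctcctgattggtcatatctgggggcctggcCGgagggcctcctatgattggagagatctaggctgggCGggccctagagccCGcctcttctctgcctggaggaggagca
Gcat: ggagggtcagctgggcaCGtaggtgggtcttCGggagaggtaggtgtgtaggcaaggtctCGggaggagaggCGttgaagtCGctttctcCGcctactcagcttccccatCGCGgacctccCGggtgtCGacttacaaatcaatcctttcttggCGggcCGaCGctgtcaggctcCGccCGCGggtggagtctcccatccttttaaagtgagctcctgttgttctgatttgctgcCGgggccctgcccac
Phgdh: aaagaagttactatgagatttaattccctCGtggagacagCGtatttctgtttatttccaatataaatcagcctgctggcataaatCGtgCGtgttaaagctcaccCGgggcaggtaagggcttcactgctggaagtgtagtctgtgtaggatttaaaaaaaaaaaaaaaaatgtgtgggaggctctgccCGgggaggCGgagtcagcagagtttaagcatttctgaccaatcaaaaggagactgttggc
Shmt2: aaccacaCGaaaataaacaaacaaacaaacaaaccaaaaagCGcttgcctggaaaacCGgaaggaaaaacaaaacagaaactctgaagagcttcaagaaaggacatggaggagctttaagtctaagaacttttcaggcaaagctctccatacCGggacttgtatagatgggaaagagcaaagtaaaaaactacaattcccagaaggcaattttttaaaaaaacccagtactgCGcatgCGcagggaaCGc
Gcat held 17 CpGs in this segment, and Aldh1l1, Phgdh and Shmt2 held 7 each, so the segment of the gene that was higher did not stand apart in CpG count from those of Phgdh and Shmt2. Full RefSeq windows of 300 bases, which reach 50 bases past the start, were found for 9 of the 10 genes. No window was found for Tdh, so the counts and letters below do not cover it. The 9 genes gave 10 windows because Psat1 has a second start. Their CpG counts ran from 9 in Aldh1l1 to 30 in the second Psat1 window, where the median of all 32851 mouse windows was 7. The core letters TGATGNAA, which the amino acid response factor ATF4 is known to bind, were searched on both strands and were in none of the 10 windows, while 3.97% of all windows held them. The E-box CACGTG, a palindrome searched likewise, was in the Gcat window alone among these genes, 2 bases after the start, while 7.15% of all windows held it. These matches describe letters in a window, and no binding was measured.

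In WT cells the genes ranged widely per length of transcript. On the scale of normalized reads per kilobase in the Mbd3abc KO table, Tdh was highest in WT at 4580, followed by Psat1 at 2674, Shmt2 at 2216, Gldc at 2053, Phgdh at 1778, Mthfd1 at 1417, Shmt1 at 1271 and Gcat at 603. Aldh1l1 was lowest at 47.8, and no 2 neighbours in this WT order overlapped between libraries. Tdh stood above 98.7% of all called genes of that table per kilobase in WT, and Aldh1l1 above 33.5%. In Mbd3abc KO the order was different: Gldc came first at 1445, and Psat1 at 1287, Tdh at 1219 and Mthfd1 at 1193 followed with overlapping libraries. Shmt2 at 690 and Shmt1 at 654 also overlapped in the mutant, Phgdh stood at 465 and overlapped Shmt1, and Gcat at 143 and Aldh1l1 at 83.1 stayed apart from their neighbours.

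Transcripts of both steps of threonine breakdown were lower. Tdh, on the minus strand of chromosome 14 from 63492347 to 63509092 of mm10, had 1820 and 2739 normalized reads in Mbd3abc KO, against 8495 and 8633 in WT. Both mutant libraries lay far below both WT libraries, and the 2 mutant libraries differed more from each other than the WT libraries did. The means were 2279 ± 650 in Mbd3abc KO and 8564 ± 97.8 in WT (SD, n = 2 each), 3.76-fold lower, with a log2 fold change of -1.85 ± 0.25 (SE) and adjusted p = 1.67e-12 in the authors' deposited table (DESeq2). In Mbd3cΔN-ab KO it had 3019 and 4019 normalized reads, against 8062 and 8251 in WT. These groups did not overlap either, and Tdh was 2.32-fold lower, with -1.17 ± 0.19 and adjusted p = 1.58e-08 in the authors' deposited table. The antisense gene Gm17232 overlaps Tdh, and the counting kept strands apart per the file headers.

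Gcat, on the plus strand of chromosome 15 from 79030874 to 79038356, whose promoter was the richest in CpG among those printed, had 354 and 320 normalized reads in Mbd3abc KO, against 1407 and 1442 in WT. The groups lay far apart with close libraries on both sides, and Gcat was 4.23-fold lower, the largest fall among these genes in that mutant. The authors' deposited table gave a log2 fold change of -2.06 ± 0.13 (SE), with adjusted p = 3.34e-52. In Mbd3cΔN-ab KO Gcat had 686 and 707 normalized reads, against 1335 and 1378 in WT, which is 1.95-fold lower (authors' deposited table, -0.95 ± 0.12, adjusted p = 2.23e-14). Gldc, which takes the glycine further, moved less: it had 5327 and 5537 normalized reads in Mbd3abc KO, against 7682 and 7751 in WT, 1.42-fold lower. Its groups did not overlap, and the authors' deposited table gave -0.50 ± 0.09 with adjusted p = 2.25e-08. The call of Gldc was lost when either WT library was left out of a DESeq2 refit of the listed genes, at log2 values of -0.50 and -0.49. Most listed genes of Mbd3abc KO and Mbd3cΔN-ab KO lost their calls in such refits, which leave 1 WT library. Gldc was not listed for the other mutants. Tdh and Gcat kept their calls in both mutants in every refit and without each library in turn.

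**Figure D2:**
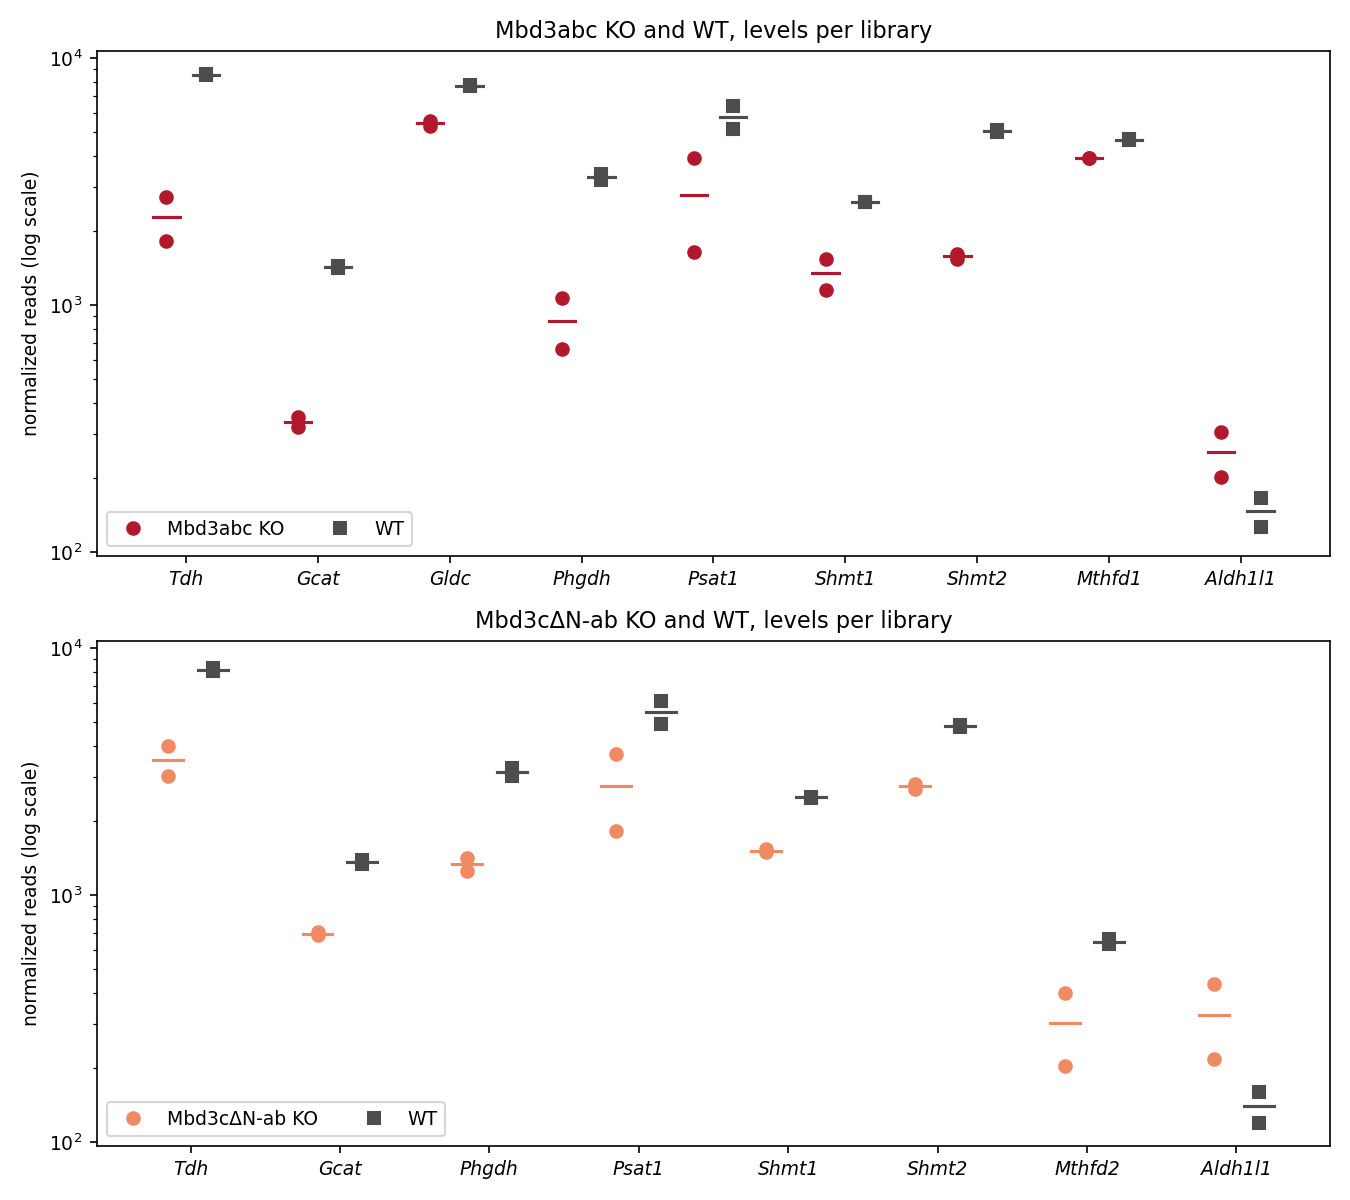
Normalized reads per library on a log scale in the Mbd3abc KO table and the Mbd3cΔN-ab KO table, with mutant libraries as circles to the left of the WT libraries as squares, and the mean of 2 libraries as a line. Gcat and Shmt2 show tight mutant pairs well below WT, the Psat1 pair is spread from 1634 to 3929 in Mbd3abc KO, and Aldh1l1 lies above WT in both tables.

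Transcripts of the serine synthesis genes were lower as well. Phgdh, which commits 3-phosphoglycerate to serine, lies on chromosome 3 from 98313171 to 98339969. It had 662 and 1064 normalized reads in Mbd3abc KO, against 3198 and 3405 in WT. It was 3.83-fold lower with groups far apart, and the authors' deposited table gave -1.86 ± 0.28 (SE) with adjusted p = 2.3e-10. In Mbd3cΔN-ab KO it had 1414 and 1248 normalized reads, against 3035 and 3254 in WT, 2.36-fold lower (authors' deposited table, -1.22 ± 0.14, adjusted p = 3.97e-17). Phgdh was the only gene of this group that was also called lower in Mbd3ab KO, where it had 1597 and 1501 normalized reads, against 2743 and 2959 in WT. That is 1.84-fold lower, with -0.84 ± 0.17 and adjusted p = 7.48e-05 in the authors' deposited table, and the groups did not overlap. With limma on log2(normalized reads + 1) no gene of the Mbd3ab KO table passed, Phgdh included (adjusted p = 0.0853, over the 13201 genes tested), although all 443 listed genes had an unadjusted p under 0.05. A pseudogene named Phgdh-ps1 is annotated, so part of the Phgdh reads could be shared with it.

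Psat1, the aminotransferase that follows Phgdh, was the least certain of the serine genes. It had 1634 and 3929 normalized reads in Mbd3abc KO, against 5176 and 6382 in WT. The first mutant library was far below WT and the second only moderately, so that the pair differed 2.40-fold, a gap wider than that of 95.9% of called genes. Psat1 was 2.08-fold lower on average, with -0.95 ± 0.42 (SE) and adjusted p = 0.0464 in the authors' deposited table. In Mbd3cΔN-ab KO the same spread appeared, with 1813 and 3714 normalized reads, against 4913 and 6100 in WT, 1.99-fold lower (authors' deposited table, -0.88 ± 0.34, adjusted p = 0.0275). The DESeq2 refit of the listed genes lost both calls, with adjusted p = 0.171 in Mbd3abc KO and 0.144 in Mbd3cΔN-ab KO. Without the first or the second WT library the refit gave adjusted p = 0.520 and 0.726 in Mbd3abc KO and 0.532 and 0.135 in Mbd3cΔN-ab KO. Without the second mutant library Psat1 stood at -1.81 on the log2 scale in Mbd3abc KO and at -1.58 in Mbd3cΔN-ab KO, and without the first at -0.55 and -0.56.

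Both serine hydroxymethyltransferases fell in both mutants. Shmt2, the mitochondrial form, on chromosome 10 from 127517123 to 127522444, had 1543 and 1608 normalized reads in Mbd3abc KO, against 5116 and 5000 in WT. The pairs were tight and far apart, 3.21-fold lower in the mutant, with -1.67 ± 0.09 (SE) and adjusted p = 7.88e-68 in the authors' deposited table. In Mbd3cΔN-ab KO it had 2678 and 2821 normalized reads, against 4855 and 4779 in WT, 1.75-fold lower (authors' deposited table, -0.80 ± 0.10, adjusted p = 8.19e-14). Shmt1, the cytosolic form, on chromosome 11 from 60788897 to 60811265, had 1149 and 1535 normalized reads in Mbd3abc KO, against 2600 and 2614 in WT. It was 1.94-fold lower, with -0.94 ± 0.20 and adjusted p = 1.44e-05 in the authors' deposited table. In Mbd3cΔN-ab KO Shmt1 had 1492 and 1530 normalized reads, against 2468 and 2498 in WT, 1.64-fold lower (authors' deposited table, -0.71 ± 0.10, adjusted p = 6.97e-11). The groups did not overlap for either gene in either mutant. Leaving out the first or the second WT library put Shmt1 in Mbd3cΔN-ab KO just above an adjusted p of 0.05 (DESeq2 refit, adjusted p = 0.0641 and 0.0741), with log2 values of -0.70 and -0.68. Ndufa4l2 overlaps Shmt2 on the other strand.

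The 2 genes that interconvert loaded folates were each listed in 1 table only. Mthfd1, the cytosolic trifunctional enzyme on chromosome 12 from 76255232 to 76319820, had 3934 and 3927 normalized reads in Mbd3abc KO, against 4679 and 4653 in WT. The pairs agree closely and do not overlap, but the difference was the smallest of these genes, 1.19-fold lower, with -0.25 ± 0.08 (SE) and adjusted p = 0.00607 in the authors' deposited table. Refits of the listed genes did not call it: adjusted p was 0.229 with DESeq2, 0.116 with edgeR and 0.140 with limma, and 0.135 to 0.774 when any 1 library was left out. Mthfd2, the mitochondrial dehydrogenase and cyclohydrolase on chromosome 6 from 83305704 to 83317604, was listed only for Mbd3cΔN-ab KO. It had 203 and 401 normalized reads there, against 632 and 663 in WT. Both mutant libraries were below WT but differed 1.97-fold from each other. Mthfd2 was 2.14-fold lower, with -0.98 ± 0.33 and adjusted p = 0.0106 in the authors' deposited table, and without the first or the second WT library the DESeq2 refit gave adjusted p = 0.0884 and 0.117. The annotated transcript Gm43890 overlaps Mthfd2 on the same strand, so reads in the shared part cannot be assigned to either.

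Aldh1l1, which takes units out of the folate pool, was the only one of these genes that rose, and it did so in all 4 mutants. It lies on the plus strand of chromosome 6 from 90550848 to 90599171. In Mbd3abc KO it had 306 and 202 normalized reads, against 126 and 166 in WT, and in Mbd3cΔN-ab KO 434 and 217, against 120 and 159 in WT. In Mbd3ab KO it had 496 and 285 normalized reads, against 108 and 145 in WT. In Mbd3c KO it had 345 and 388, against 88.7 and 118 in WT. Every mutant library was above every WT library of its table. The second library of 3 of the mutants was well below the first, and in Mbd3c KO the pair was close. The numbering follows column order, so libraries of different mutants are not matched by it. The means were 254 ± 73.6 in Mbd3abc KO and 146 ± 28.4 in WT, 326 ± 154 in Mbd3cΔN-ab KO and 139 ± 27.8 in WT, 390 ± 150 in Mbd3ab KO and 126 ± 25.7 in WT, and 366 ± 30.7 in Mbd3c KO and 104 ± 21.0 in WT (SD, n = 2 each).

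Aldh1l1 was thus 1.74-fold higher in Mbd3abc KO, 2.34-fold higher in Mbd3cΔN-ab KO, 3.09-fold higher in Mbd3ab KO and 3.54-fold higher in Mbd3c KO. The authors' deposited tables gave log2 fold changes of 0.75 ± 0.32 (SE, adjusted p = 0.0383), 1.05 ± 0.37 (0.0133), 1.36 ± 0.31 (0.00131) and 1.46 ± 0.36 (0.0196) in that order of mutants. The SEs of neighbouring mutants in this order overlap, and the difference between mutants was tested only for Mbd3abc KO against Mbd3cΔN-ab KO. In Mbd3abc KO the DESeq2 refit without the first mutant library gave a log2 fold change of 0.43 with adjusted p = 0.571, and without the first or the second WT library adjusted p = 0.482 and 0.156. In Mbd3cΔN-ab KO the corresponding values were 0.57 with adjusted p = 0.336, and 0.212 and 0.0530 without a WT library. Limma called neither Aldh1l1 in Mbd3ab KO (adjusted p = 0.132) nor in Mbd3c KO (0.240), where it called no gene at all with p-values adjusted over the 10761 genes tested, all 38 listed genes having an unadjusted p under 0.05. Of the keratins that mark trophectoderm, Krt8 was higher in Mbd3abc KO, Mbd3cΔN-ab KO and Mbd3ab KO, and Krt18 in Mbd3abc KO, Mbd3ab KO and Mbd3c KO. In each of these the first mutant library was above the second. Krt8 had 669 and 322 normalized reads in Mbd3abc KO, against 81.1 and 126 in WT, and 488 and 203 in Mbd3cΔN-ab KO, against 77.0 and 121 in WT. Over all genes tested 52.1% were called in Mbd3abc KO, 41.5% in Mbd3cΔN-ab KO, 3.35% in Mbd3ab KO and 0.353% in Mbd3c KO. Of the 4 trophectoderm markers 2 were called in Mbd3abc KO, 1 in Mbd3cΔN-ab KO, 2 in Mbd3ab KO and 1 in Mbd3c KO. All of these were higher, while Cdx2 and Gata3 were called in none. The summed level of the called ones was 538 to 1217 normalized reads in Mbd3abc KO and 188 to 264 in WT. It was 203 to 488 in Mbd3cΔN-ab KO and 77.0 to 121 in WT, 408 to 667 in Mbd3ab KO and 161 to 230 in WT, and 286 to 307 in Mbd3c KO and 75.1 to 98.1 in WT. In Mbd3c KO, where Aldh1l1 was higher in the second library, Krt18 had 307 and 286 normalized reads. Of 3 neuroectoderm markers Pax6 had 0 reads in both Mbd3abc KO libraries, against 19.3 and 17.1 normalized reads in WT, and Nes was 2.10-fold lower there. The part of these markers in the Aldh1l1 result was not tested, and in bulk libraries more RNA per cell and more cells of a type cannot be told apart. The antisense gene Gm15756 overlaps Aldh1l1.

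**Figure D3:**
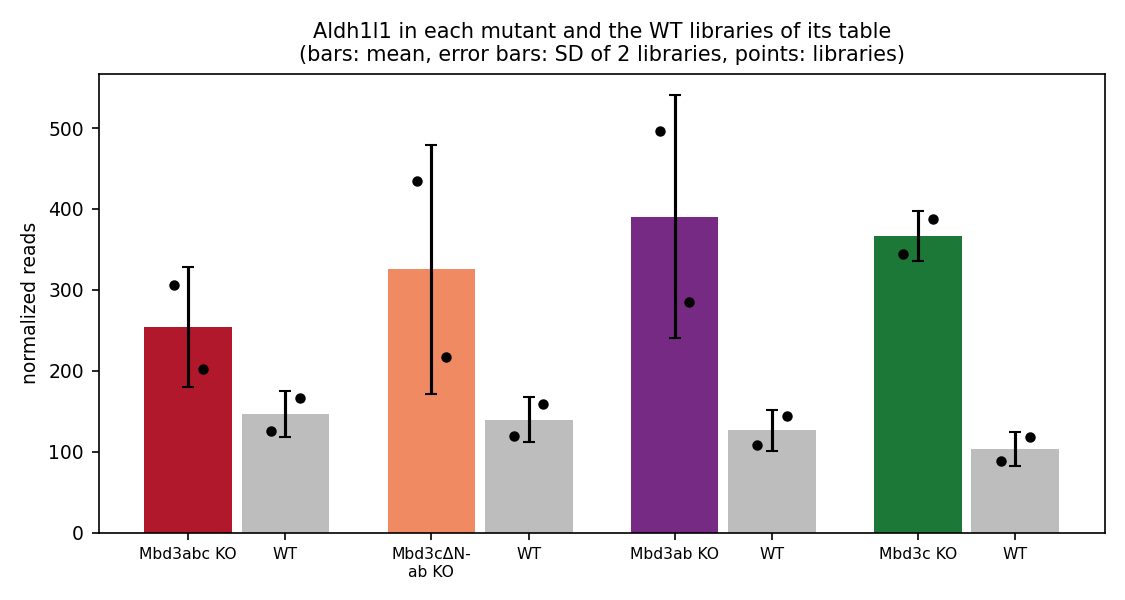
Normalized reads of Aldh1l1 in each mutant (coloured bars) to the left of the WT libraries of the same table (grey bars); bars are means, error bars SD of 2 libraries and points the libraries. Mutant libraries range from 202 to 496 and WT libraries from 88.7 to 166, with levels comparable within a table only.

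The genes most like Aldh1l1 and Tdh in pattern were sought among those called in the same tables. For Aldh1l1 only 4 genes could be compared: the laminin gene Lamb3, Klhdc7a and the germ cell transcription factor Sohlh2 were higher in every table, and the imprinted gene Peg3 was lower. Over the 4 deposited log2 fold changes, Lamb3 was nearest to Aldh1l1, at a Euclidean distance of 1.55, with values of 2.00, 1.49, 2.02 and 1.92 in Mbd3abc KO, Mbd3cΔN-ab KO, Mbd3ab KO and Mbd3c KO. Klhdc7a followed at 2.07, Sohlh2 at 2.59 and Peg3 at 4.97. For Tdh the likeness was measured over its 2 tables among 5493 genes. The nearest were the zinc finger gene Zfp819 at 0.0149, the MARCKS-like gene Marcksl1 at 0.0194, Msto1 at 0.0213 and the aldo-keto reductase gene Akr7a5 at 0.0367. All 4 tables share the WT libraries.

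Direction in Mbd3abc KO and Mbd3cΔN-ab KO moved with the GC content of the transcript, and the genes described here lie in its middle and upper classes. Their transcripts have 48.4% GC in Psat1 to 57.2% in Shmt2. Called genes with 52.8% to 56.6% GC, the fourth of 5 equal classes, were lower in 79.3% of cases in Mbd3abc KO, and those above that, up to 72.3%, in 89.7%. In Mbd3cΔN-ab KO the fourth class, 53.1% to 57.0% GC, was lower in 85.9% of cases and the highest class in 93.8%. Aldh1l1, with 55.8% GC, rose although 20.7% of the called genes of its class did so in Mbd3abc KO and 14.1% in Mbd3cΔN-ab KO. Set against the median deposited log2 fold change of called genes in the same of 20 GC bins, Tdh stood at -1.08, Gcat at -1.07, Phgdh at -0.86 and Shmt2 at -0.68 in Mbd3abc KO. Psat1 and Shmt1, from the middle class, stood further below their bin, at -1.57 and -1.56, and Aldh1l1 stood above its bin at 1.66. Called genes of the middle class were split, with 45.0% higher and 55.0% lower. The bin of Psat1 and Shmt1 had a median of 0.62, and that of Mthfd1, in the same class, a median of -0.70. These offsets thus depend on the side of 0 on which a bin median fell. In Mbd3cΔN-ab KO the bin median of Psat1 and Shmt1 was 0.56. Gldc and Mthfd1 stood above theirs, at 0.26 and 0.45, so their falls were smaller than the median fall of called genes in their bins. Genes that were not called are left out of these medians. In Mbd3cΔN-ab KO the values were -0.50 for Tdh, -0.46 for Phgdh, -1.44 for Psat1, -1.27 for Shmt1, -0.65 for Mthfd2 and 1.76 for Aldh1l1, while Gcat at -0.18 and Shmt2 at -0.04 were near their bins. In Mbd3ab KO the called genes of the class of Aldh1l1 were lower in 30.7% of cases and those of the class of Phgdh in 34.1%. The part of GC content in each fold was not tested.

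**Figure D4:**
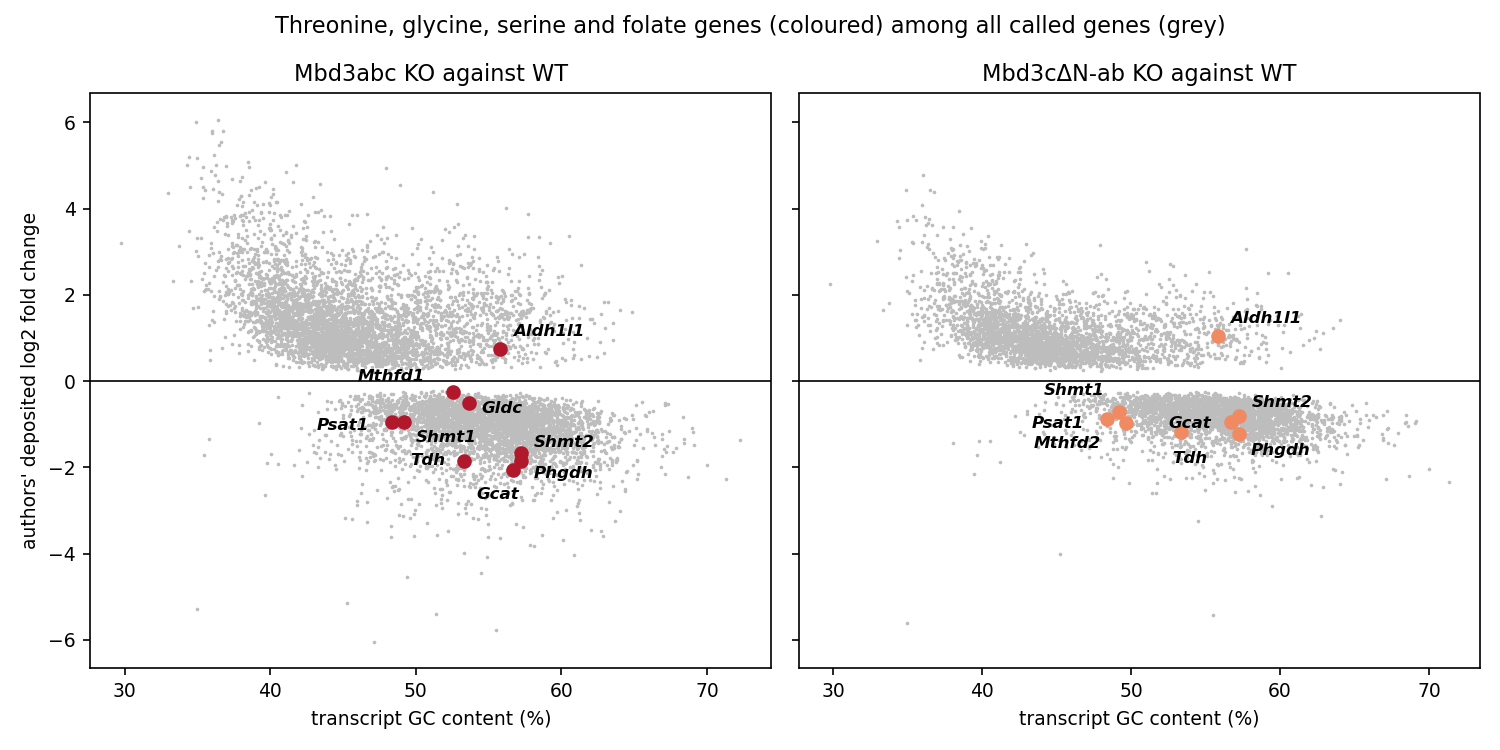
Authors' deposited log2 fold change, mutant over WT, against GC content of the transcript in percent for all called genes (grey) and the genes of this group (coloured) in Mbd3abc KO and in Mbd3cΔN-ab KO. Called genes above 56.6% GC were lower in 89.7% of cases in Mbd3abc KO, and Aldh1l1 lies above 0 among mostly lower genes of like GC.

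Mbd3abc KO and Mbd3cΔN-ab KO were then compared with each other, with edgeR's quasi-likelihood test on recovered reads of the 5404 genes called in both tables, 7 of the genes of this group among them. Of the 5404 genes 6.68% were called at an adjusted p of 0.05, and 3.44% were lower in Mbd3abc KO. Gcat and Shmt2 were called, both lower in Mbd3abc KO. On the common scale of this fit Gcat had 354 and 311 normalized reads in Mbd3abc KO and 744 and 737 in Mbd3cΔN-ab KO, beside 1400 and 1482 in WT. The 3 groups did not overlap and Mbd3cΔN-ab KO lay between the others. The log2 difference for Gcat was -1.16 (SE 0.17, from DESeq2) with edgeR's adjusted p = 0.0121, which is 2.23-fold lower. Shmt2 had 1545 and 1563 normalized reads in Mbd3abc KO and 2907 and 2940 in Mbd3cΔN-ab KO, beside 5091 and 5140 in WT. Its log2 difference was -0.91 (SE 0.14, from DESeq2) with edgeR's adjusted p = 0.0140, which is 1.88-fold lower, again with Mbd3cΔN-ab KO between the others.

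For 5 genes the difference did not pass. Tdh was at -0.74 (edgeR, adjusted p = 0.0652) and Phgdh at -0.74 (0.0714), each with both Mbd3abc KO libraries below both Mbd3cΔN-ab KO libraries. DESeq2 on the same reads called these 2 as well, with adjusted p = 0.0167 and 0.0237, in a fit that called 702 genes where edgeR called 361. Shmt1 was at -0.28 (0.223), Aldh1l1 at -0.46 (0.393) and Psat1 at -0.10 (0.881), with overlapping libraries in the last 2. The calls of Gcat and Shmt2 depended on the libraries used, as did most calls of this test. Each fit without a library leaves 1 library in a group. Without the first or the second WT library edgeR gave Gcat adjusted p = 0.0669 and 0.0674 and Shmt2 0.0753 and 0.0745, and without the second Mbd3cΔN-ab KO library 0.0509 and 0.0591. Without the first Mbd3abc KO library Gcat had 0.0337 and Shmt2 0.0520. Without the first Mbd3cΔN-ab KO library both were still called, and without the second Mbd3abc KO library Tdh and Phgdh were called too, at 0.0425 and 0.0366. The log2 difference stayed between -1.25 and -1.08 for Gcat and between -0.93 and -0.90 for Shmt2 in all 6 cases. Leaving out a WT library bears on the spread of this test and hardly on the difference between the mutants.

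The 62 further genes of the wider pathway, in 9 lists, were more often lower than higher when called in Mbd3abc KO, with 12 higher, 27 lower and 23 not called and a median log2 fold change of -0.86 among the called. That is 62.9% called, against 52.1% of all genes tested, where 24.9% were called lower and 27.1% higher. In Mbd3cΔN-ab KO 10 were higher, 23 lower and 29 not called, with a median of -0.69. So 53.2% were called, against 41.5% of all genes tested, where 20.4% were called lower and 21.1% higher. In Mbd3ab KO 3 were lower and 59 not called, which is 4.84% called, against 3.35% of all genes tested. In Mbd3c KO none of the 62 was called, where 0.353% of all genes tested were. The 4 genes of other threonine and serine catabolism, Sds, Sdsl, Acat1 and Dlst, were called in none. Psph, the last enzyme of serine synthesis, followed Phgdh in being lower in 3 mutants: it was 1.83-fold lower in Mbd3abc KO (258.6 ± 48.5 normalized reads, against 474 ± 23.3 in WT), 1.52-fold lower in Mbd3cΔN-ab KO and 1.70-fold lower in Mbd3ab KO. The authors' deposited tables gave it adjusted p = 0.000205, 0.0143 and 0.0449 in that order. Dld, the lipoamide dehydrogenase shared by the glycine cleavage system and other complexes, rose 4.14-fold in Mbd3abc KO and 2.67-fold in Mbd3cΔN-ab KO. Amt, the aminomethyltransferase of the same system, was 1.63-fold lower in Mbd3abc KO and was not called in Mbd3cΔN-ab KO.

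Folate genes were split. Of 11 folate cycle genes 4 were higher and 4 lower in Mbd3abc KO, and 2 higher and 3 lower in Mbd3cΔN-ab KO. Over all genes tested 52.1% were called in Mbd3abc KO and 41.5% in Mbd3cΔN-ab KO. Fpgs, which adds glutamates to folate, was 2.51-fold lower in Mbd3abc KO and 1.48-fold lower in Mbd3cΔN-ab KO. Mthfd1l, the mitochondrial formate-producing synthetase, was 2.06-fold and 1.46-fold lower in the same order of mutants. Tyms, the thymidylate synthase, was 1.42-fold lower in Mbd3abc KO. Mthfd2l, a paralog of Mthfd2, was 6.46-fold higher in Mbd3abc KO and 3.92-fold higher in Mbd3cΔN-ab KO, from a low level, with 45.4 and 28.6 normalized reads in Mbd3abc KO, against 9.01 and 2.45 in WT. Ggh, which removes glutamates from folate, was 3.27-fold higher and Mthfs, which recycles formyl folate, 2.64-fold higher in Mbd3abc KO. The 5 folate uptake genes held 1 higher and 3 lower in both mutants: the mitochondrial carrier Slc25a32 rose 2.96-fold in Mbd3abc KO and 2.29-fold in Mbd3cΔN-ab KO, while the plasma membrane carrier Slc19a1 was 2.46-fold and 1.79-fold lower. The proton-coupled carrier Slc46a1 was 1.84-fold and 1.98-fold lower and the folate receptor Folr1 1.79-fold and 1.60-fold lower in the same order. In the methionine cycle and transsulfuration 4 of 13 were higher and 2 lower in Mbd3abc KO, 4 higher and 1 lower in Mbd3cΔN-ab KO. Ahcy, which clears S-adenosylhomocysteine, was 2.20-fold lower in Mbd3abc KO and 1.74-fold lower in Mbd3cΔN-ab KO, and its relative Ahcyl1 was 1.61-fold and 1.58-fold higher. Cth, the last enzyme of transsulfuration, was 1.62-fold and 1.52-fold higher, while Cbs, the enzyme before it, was 1.90-fold lower in Mbd3abc KO. Ahcyl2 was 1.45-fold higher and Mat2b, a subunit of methionine adenosyltransferase, 1.26-fold higher in Mbd3cΔN-ab KO. The betaine-using methyltransferase Bhmt had 35.8 and 12.4 normalized reads in Mbd3abc KO, against 1.29 and 0.82 in WT, and Bhmt2 had 47.4 and 11.5, against 3.86 and 0.82 in WT, too few WT reads to give a fold.

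Purine synthesis, which uses formyl folate, had 1 higher and 4 lower of 8 in Mbd3abc KO, and 1 higher and 5 lower in Mbd3cΔN-ab KO, where 52.1% and 41.5% of all genes tested were called in that order of mutants. Pfas was 3.04-fold lower in Mbd3abc KO and 2.24-fold lower in Mbd3cΔN-ab KO, Gart 2.71-fold and 2.00-fold lower, and Ppat, the first committed enzyme, 1.98-fold and 1.82-fold higher. Adsl was 1.93-fold and 1.63-fold lower, Impdh2, which leads to guanine nucleotides, was lower at -0.69 and -0.58 on the deposited log2 scale, and Atic was 1.26-fold lower in Mbd3cΔN-ab KO. Amino acid carriers had 1 higher and 5 lower of 7 in both mutants. Slc1a4, a carrier of alanine, serine and cysteine, had 59.9 and 115 normalized reads in Mbd3abc KO, against 886 and 820 in WT, 9.73-fold lower (authors' deposited table, -3.07 ± 0.34, adjusted p = 2.85e-18). It was 3.94-fold lower in Mbd3cΔN-ab KO. The glycine carrier Slc6a9 was 3.34-fold lower in Mbd3abc KO, 4.02-fold lower in Mbd3cΔN-ab KO and 2.45-fold lower in Mbd3ab KO, where its adjusted p was 0.0314. Slc1a5, a glutamine carrier, was 3.51-fold lower in Mbd3abc KO and 2.23-fold lower in Mbd3cΔN-ab KO. Slc3a2 and Slc7a5, the chains of a leucine carrier, were 1.85-fold and 1.99-fold lower in Mbd3abc KO and 1.75-fold and 2.06-fold lower in Mbd3cΔN-ab KO. Slc38a2, a carrier of neutral amino acids, was 1.42-fold higher in Mbd3abc KO and 1.39-fold higher in Mbd3cΔN-ab KO.

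Genes of the amino acid response list were all lower where called, with 7 of the 9 called for Mbd3abc KO and 5 for Mbd3cΔN-ab KO, where 52.1% and 41.5% of all genes tested were called. The 7 transcripts have 53.3% to 61.7% GC, in classes whose called genes were lower in 79.3% and 89.7% of cases in Mbd3abc KO. Relative to the median of their GC bin in that mutant, Atf4 stood at 0.03, Atf5 at 0.01 and Sesn2 at -0.10, and Trib3 stood at -1.23. Trib3, a pseudokinase target of ATF4, had 103 and 173 normalized reads in Mbd3abc KO, against 761 and 662 in WT, 5.15-fold lower, and was 4.96-fold lower in Mbd3cΔN-ab KO. Chac1, a glutathione-degrading enzyme, was 3.55-fold lower in Mbd3abc KO and 4.62-fold lower in Mbd3cΔN-ab KO. Atf4 itself was 1.75-fold lower in Mbd3abc KO, with 896 and 1496 normalized reads, against 2043 and 2147 in WT, and was not called in the other mutants. Sesn2, a leucine sensor, was 2.20-fold lower in Mbd3abc KO and 2.00-fold lower in Mbd3cΔN-ab KO, and Atf5, a relative of Atf4, 2.43-fold and 2.81-fold lower. The list also holds the transcription factors Myc, 2.43-fold lower in Mbd3abc KO, and Mycn, which was 2.35-fold lower in Mbd3abc KO, 2.99-fold lower in Mbd3cΔN-ab KO and 2.25-fold lower in Mbd3ab KO, with adjusted p = 0.000383 in that table. These lists were drawn up with earlier results of these data known, so their directions are a description of the called genes.

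**Figure D5:**
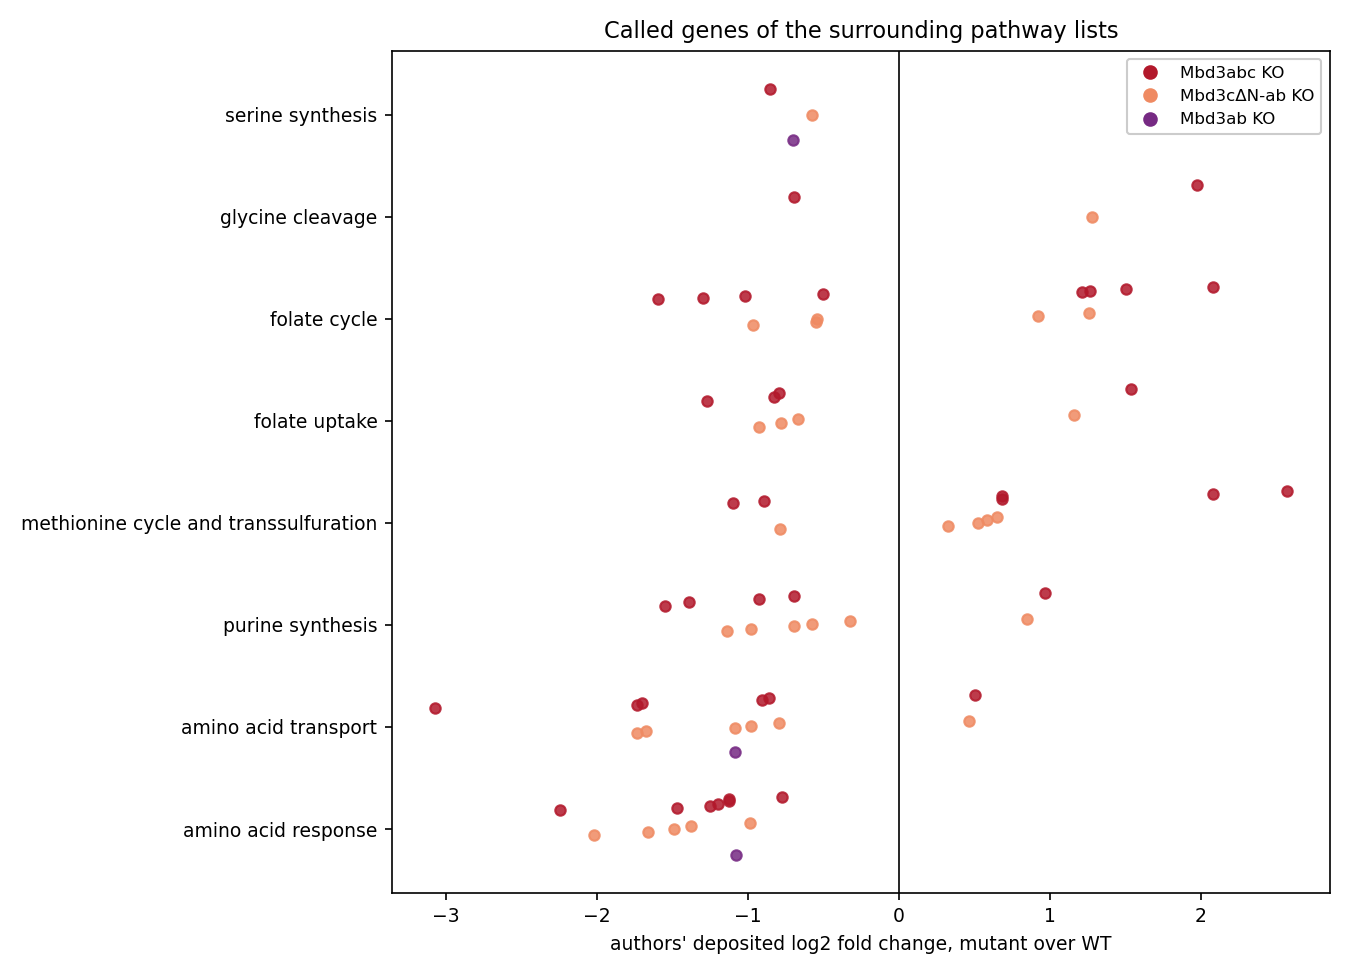
Authors' deposited log2 fold change, mutant over WT, of every called gene of the surrounding pathway lists, 1 point per gene, coloured by mutant. All called genes of the amino acid response list lie below 0, whereas the folate cycle has points on both sides, 4 and 4 in Mbd3abc KO.

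The libraries of a mutant differed for some of these genes more than for most. In Mbd3abc KO 6 of the 9 genes were higher in the second library than in the first, by 0.59 in Tdh and 0.68 in Phgdh on the log2 scale, where the median gap of called genes in either direction was 0.25. Aldh1l1 went the other way, its second library at 0.66 times the first in Mbd3abc KO, 0.50 times in Mbd3cΔN-ab KO and 0.57 times in Mbd3ab KO. The second library of Gcat stood at 0.90 times the first in Mbd3abc KO and 1.03 times in Mbd3cΔN-ab KO, and that of Shmt2 at 1.04 and 1.05 times. Of the 6 embryonic stem cell markers called in Mbd3abc KO, Pou5f1, Utf1, Tdgf1 and Sox2 were higher in the second library, and Esrrb and Klf4 were higher in the first. Pou5f1 had 2816 and 4647 normalized reads there and Esrrb 6586 and 6063. In Mbd3cΔN-ab KO Pou5f1 had 3973 and 6551, and the pairs of Utf1, Esrrb and Klf4 were close, with 2356 and 2386 in Utf1. The part of these markers in the Tdh result was not tested.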

How the data were processed

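RNA from 10 libraries, 2 for each of 4 mutants and WT, was measured by strand-specific sequencing. TopHat2, HOMER, DESeq2 and build mm10 are named in the submitters' processing notes. Exon reads were counted by strand and condensed to genes, per the file headers. The authors deposited 4 tables with a normalized signal per library, a log2 fold change with its SE, a score (the test statistic, not used) and p-values, raw and adjusted. Each lists called genes almost only. Column names gave the group of a library but no replicate number, so libraries were numbered in column order.

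Signal columns for Mbd3abc KO, Mbd3cΔN-ab KO and Mbd3ab KO were whole multiples of a step per library within 0.006. Reads were recovered from these steps and divided by size factors from the deposited mean. Count tests were run only for Mbd3abc KO and Mbd3cΔN-ab KO, although reads could be recovered for Mbd3ab KO too. Errors are the SD of 2 libraries. The numbers of genes tested, recovered from p and adjusted p, were 15622, 14429, 13201 and 10761 for Mbd3abc KO, Mbd3cΔN-ab KO, Mbd3ab KO and Mbd3c KO. Main results are the deposited calls (adjusted p of 0.05). Refits used DESeq2 1.42.0, edgeR 4.0.16 (TMM) and limma 3.58.1 (pseudocounts 1 and 0.5) in R 4.3.3 on listed genes only, so their spread comes from selected genes; their p-values were adjusted over the number of genes tested in that table. The mutants were compared with edgeR on genes called in both tables. GC content came from GENCODE M21 transcripts, with at least 97.4% of called genes matched. Promoter sequences are from RefSeq. The scripts were tested on simulated data.

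All 10 genes were named wherever listed, together with every called gene of the pathway lists, apart from some of the folate cycle that are not reported here, and, for Tdh and Aldh1l1, the 4 genes with the nearest deposited log2 fold changes over the tables that call them. The genes and lists were chosen with earlier results of these data known.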

Additional observations from a re-analysis of the deposited data

Results flagged for a closer look

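Gcat and Shmt2 differed between Mbd3abc KO and Mbd3cΔN-ab KO by a test of the difference itself. The test covered only the 5404 genes already called in both mutants against the same WT libraries. Both calls, like most calls of this test, depended on the libraries used. Without 1 library the log2 difference lay between -1.25 and -1.08 for Gcat and between -0.93 and -0.90 for Shmt2. The log2 difference was -1.16 for Gcat and -0.91 for Shmt2 (edgeR, adjusted p = 0.0121 and 0.0140), and both libraries of Mbd3abc KO lay below both of Mbd3cΔN-ab KO for each gene. Relative to called genes of like GC content, Gcat stood at -1.07 in Mbd3abc KO and -0.18 in Mbd3cΔN-ab KO, and Shmt2 at -0.68 and -0.04.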

How the results depend on the processing

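No paired analysis was possible because the columns carry no replicate numbers for the mutant libraries. At an adjusted p of 0.01, 9 calls in Mbd3abc KO became 7, 8 in Mbd3cΔN-ab KO became 5, 2 in Mbd3ab KO stayed 2 and 1 in Mbd3c KO became 0. Limma called 0 in Mbd3ab KO and 0 in Mbd3c KO with either pseudocount. Leaving out a WT library lost calls among these genes and among all listed genes of Mbd3abc KO and Mbd3cΔN-ab KO. Leaving out a mutant library lost fewer, and no fold of these genes changed sign. These DESeq2 refits assume that the remaining library varies like the other ones. Count tests were not run for Mbd3ab KO or Mbd3c KO. With 441 and 37 called genes in the GC bins there, values relative to a bin rest on few genes: Aldh1l1 stood at 0.53 in Mbd3ab KO and -0.28 in Mbd3c KO, and Phgdh at -1.80 in Mbd3ab KO. Relative to the medians of called genes in GC bins, Gldc and Mthfd1 changed sign in Mbd3abc KO, to 0.26 and 0.45. In the comparison of the 2 mutants edgeR called 2 genes, DESeq2 4, and 0 to 4 were called without 1 library. Without 1 library the log2 difference of Aldh1l1 ran from -0.91 to 0.15 and that of Psat1 from -0.85 to 0.47, so neither has a stable sign. With at least 2-fold change, 8 pathway genes were higher and 16 lower in Mbd3abc KO, and 3 were higher and 11 lower in Mbd3cΔN-ab KO. At 0.01, 1 was lower in Mbd3ab KO. The 9 results of Tdh, Gcat, Phgdh and Shmt2 in both mutants and Shmt1 in Mbd3abc KO kept their calls in every refit. TMM factors moved all genes by -0.03 in Mbd3abc KO and -0.01 in Mbd3cΔN-ab KO.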
